A study of Mus musculus with 9 samples.

Results

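Integrins are cell-surface adhesion receptors, each built from 1 alpha and 1 beta chain, and 10 genes for such chains were followed here: the beta chains Itgb1, Itgb2, Itgb3, Itgb7 and Itgb8 and the alpha chains Itga4, Itga6, Itgae, Itgal and Itgav. They were chosen by name with earlier results of these data known, and all 10 were among the 13698 genes of the deposited table. RNA was sequenced from regulatory T (Treg) cells of mouse spleen and lymph node, in 9 libraries that form 3 groups of 3. The deficient cells (genotype LRFffThpokff Foxp3 Cre-YFP/X) were YFP+ and MHCII-. In them Cre, made together with YFP from the Foxp3 locus, acts on floxed alleles of Zbtb7b, which encodes Thpok, and Zbtb7a, which encodes LRF. The genetic controls (WT Foxp3 Cre-YFP/X) were YFP+ MHCII- cells of other mice, with intact Thpok and LRF genes and the same Cre-YFP allele. The animal controls came from the same 3 mice as the deficient cells but were YFP-MHCII-CD25hi, so their active Foxp3 allele was the one without Cre and they still had Thpok and LRF. All mice were females of a C56Bl6/129 mix background and carried the Cre-YFP allele on 1 of their X chromosomes. Age is not stated in the labels.

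An alpha chain sets most of the ligand preference of an integrin, and a beta chain can be shared by several alpha chains. In T cells, α4β1 binds VCAM-1 on inflamed vessels and fibronectin, α4β7 binds MAdCAM-1 on gut vessels, αEβ7 (CD103) binds E-cadherin on epithelium, α6β1 binds laminin, and αLβ2 (LFA-1) binds ICAM proteins on other leukocytes and on endothelium. The integrin αVβ8 is known on Treg cells for releasing active TGF-beta from its latent form. A chain without a partner is largely kept inside the cell, so the balance of partner chains bears on which receptors a cell can display; surface protein was not measured here.

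Levels are given in CPM, the unit of read counts scaled to library size, and were computed from the deposited log2 CPM values. The distributions of these values are nearly the same in all 9 libraries. Itgb2, for example, had the same level of 1147.87 CPM in genetic controls 8619 and 8800. The values were thus read as brought to a common distribution and not only scaled to library size, so the read depth of each library is unknown. The deleted gene Zbtb7b averaged 0.26 ± 0.11 CPM in deficient cells, 115 ± 30.3 CPM in genetic controls and 93.7 ± 15 CPM in animal controls (SD, n = 3 each, as for all levels below). Zbtb7a gave 89.5 ± 12.6, 90.3 ± 21 and 112 ± 19.3 CPM in the same order, and since per-gene values can include reads from exons that Cre leaves in place, they do not check its deletion. Foxp3 was measured in every library, at 26.5 to 35.9 CPM in deficient cells, 24.8 to 38.1 CPM in genetic controls and 754 to 1000 CPM in animal controls. The 7 Treg markers (Foxp3, Il2ra, Ikzf2, Ctla4, Tnfrsf18, Cd3e and Cd4) were all measured. They summed to between 2517 and 2823 CPM in deficient cells, 2785 and 3440 CPM in genetic controls, and 4444 and 4940 CPM in animal controls. Foxp3 is part of these sums and was low in both YFP+ groups, the deficient cells and the genetic controls. Il2ra, which encodes CD25, averaged 473 ± 70.2, 676 ± 104 and 770 ± 31 CPM, and Cd4 averaged 355 ± 25.7, 866 ± 175 and 889 ± 87.7 CPM in the same order. Markers of other cell types were summed in the same way. The CD8 genes Cd8a and Cd8b1 summed to between 585 and 593 CPM in deficient cells, 28.3 to 85 CPM in genetic controls and 64.4 to 105 CPM in animal controls. In bulk RNA, CD8 transcripts made by the deficient cells themselves cannot be told apart from those of admixed CD8 T cells. For myeloid and dendritic cells 6 of 10 markers were measured, with summed levels of 131 to 173 CPM in deficient cells, 96.7 to 485 CPM in genetic controls and 101 to 143 CPM in animal controls. The highest of these sums was in genetic control 8619, which also had the highest sum over platelet and erythroid markers (65.1 CPM). B cell markers (2 of 5 measured) summed to at most 69.3, 28.5 and 92.1 CPM in deficient cells, genetic controls and animal controls, and NK cell markers (3 of 5) to at most 11.9, 16.8 and 11 CPM. Of 6 stromal and endothelial markers only Pecam1 was measured, which T cells also make, at 64.3 to 148 CPM in deficient cells, 226 to 243 CPM in genetic controls and 167 to 220 CPM in animal controls.

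The promoters of Itgb1, Itgb7 and Itga4, the 3 chains that were lower in every deficient library than in every control library, are shown to let their upstream sequence be read side by side. Of all genes, 7.28% were lower in this sense against genetic controls and 8.1% against animal controls. Itga4 was not called against either control by the test given below. Each line gives the 250 bases before the annotated start from RefSeq on GRCm38.p6, 5′ to 3′ on the strand of the gene. They lie at chr8:128685404-128685653 on the plus strand for Itgb1, chr15:102231936-102232185 on the minus strand for Itgb7 and chr2:79255176-79255425 on the plus strand for Itga4. Capitals mark TGTGGT, the core bound by Runx factors, or its reverse complement ACCACA, and GGGCGG, the core bound by Sp1-like factors, or CCGCCC. Matches of the 2 motifs cannot overlap each other on either strand.
Itgb1: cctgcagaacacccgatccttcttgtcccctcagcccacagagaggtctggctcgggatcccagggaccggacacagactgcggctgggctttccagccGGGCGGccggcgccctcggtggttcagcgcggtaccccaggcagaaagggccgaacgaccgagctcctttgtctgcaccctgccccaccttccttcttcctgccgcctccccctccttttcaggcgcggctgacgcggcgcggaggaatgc
Itgb7: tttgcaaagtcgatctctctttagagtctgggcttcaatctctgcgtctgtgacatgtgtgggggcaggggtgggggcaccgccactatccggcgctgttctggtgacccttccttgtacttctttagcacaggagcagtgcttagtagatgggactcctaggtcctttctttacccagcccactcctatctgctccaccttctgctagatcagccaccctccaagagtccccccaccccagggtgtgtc
Itga4: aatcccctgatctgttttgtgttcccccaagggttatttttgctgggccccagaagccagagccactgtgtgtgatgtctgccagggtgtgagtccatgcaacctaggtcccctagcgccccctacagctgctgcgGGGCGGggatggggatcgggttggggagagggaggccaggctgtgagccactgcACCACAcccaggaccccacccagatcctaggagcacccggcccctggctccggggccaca
The Itgb1 window holds 1 GGGCGG and no TGTGGT, the Itga4 window holds 1 of each, and the Itgb7 window holds neither. Of 32536 distinct promoter windows of this length, 14.0% hold TGTGGT and 33.0% hold GGGCGG, so neither motif is rare. These matches describe the letters only.

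**Figure D1:**
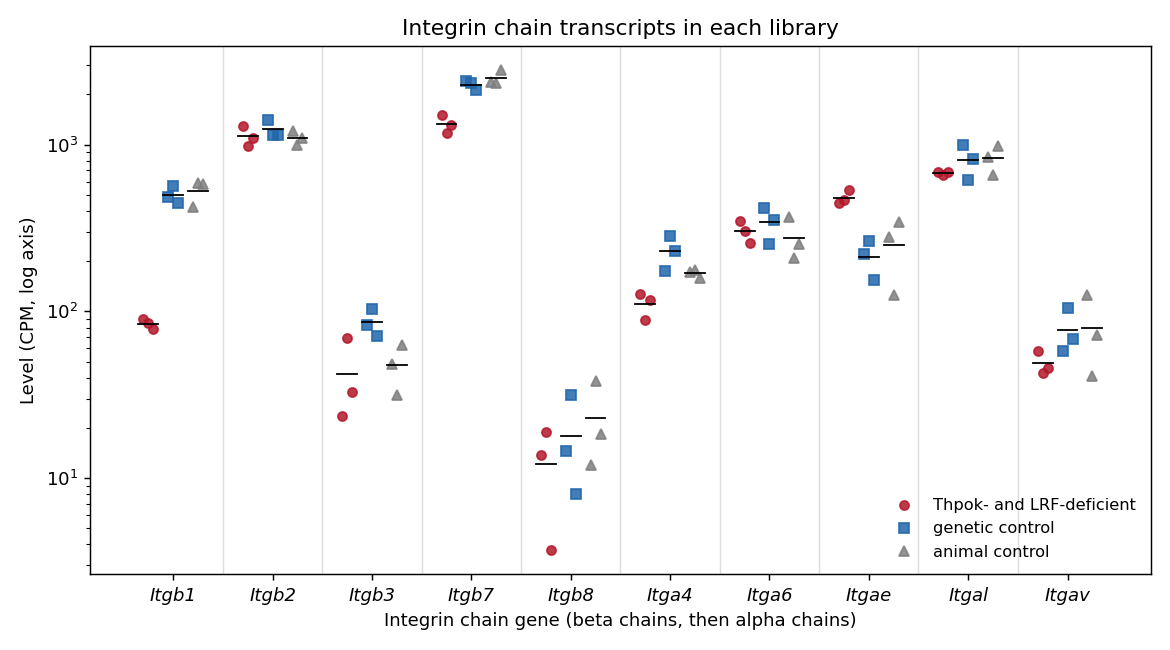
Level of each of the 10 integrin chain genes in CPM on a log axis, with a point per library and a line at the mean of 3 libraries, for deficient cells (circles), genetic controls (squares) and animal controls (triangles). The 3 deficient libraries lie at 78.4 to 89.6 CPM for Itgb1, below all 6 control libraries, and at 446 to 535 CPM for Itgae, above all of them.

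The study set Treg cells without Thpok and LRF against 2 kinds of control, and the comparison here asks how the chains and their partners stood in each. Against the genetic controls, 2 of the 10 chains were called lower and 0 higher (limma-trend over all genes, Benjamini-Hochberg adjusted p under 0.05), where 0.533% of all genes tested were called lower and 0.336% higher. In either direction 0.869% of all genes were called. At an unadjusted p under 0.05 there were 5 of 10 chains, among 10.6% of all genes. Against the animal controls the same 2 chains, Itgb1 and Itgb7, were called lower and 0 higher, with backgrounds of 0.584% and 0.307%, or 0.891% in either direction, and 4 of 10 had an unadjusted p under 0.05, among 11.9% of all genes. The 2 comparisons share the deficient libraries and are therefore not independent of each other. As the chains were chosen with earlier results known, their counts beside the shares of all genes are a description and not a test of the set. The median log2 fold change over the 10 chains was -0.64 against genetic controls and -0.42 against animal controls, with a median over all genes of 0.04 in both. These are bulk RNA samples, so fewer cells making a transcript and less of it per cell cannot be told apart.

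Itgb1 encodes β1, the chain that pairs with α4, α6 and αV among the alpha chains followed, and lies at chr8:128685654-128733200 on the plus strand (GRCm38, as for the other genes). It measured 89.6, 84.8 and 78.4 CPM in the deficient libraries of mice 142114, 232614 and 432614. It measured 488, 565 and 450 CPM in genetic controls 124, 8619 and 8800. In the animal controls of mice 142114, 232614 and 432614 it measured 420, 586 and 578 CPM. The deficient libraries lay close together and well under the lowest control library. Itgb1 fell to 0.169 times its level in the genetic controls (log2 fold change -2.57 ± 0.17 SE, adjusted p = 1.48e-04 by limma-trend). Against the animal controls it fell to 0.161 times (-2.63 ± 0.17, adjusted p = 8.75e-05). Within each mouse the log2 difference between deficient and animal control cells was -2.23, -2.79 and -2.88. With the mouse as a fixed term the adjusted p against the animal controls was 0.125 for the same estimate, and with the mouse as a random term it was 7.29e-05.

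Itgb7 encodes β7, the partner of α4 and αE in lymphocytes that home to or stay in the gut, and lies at chr15:102215995-102231944 on the minus strand. Its deficient libraries measured 1514, 1173 and 1317 CPM, the genetic controls 2407, 2328 and 2116 CPM, and the animal controls 2365, 2328 and 2804 CPM. No deficient library reached the lowest control library. Itgb7 fell by 0.78 on the log2 scale against genetic controls (SE 0.11, adjusted p = 0.0107) and by 0.91 against animal controls (SE 0.11, adjusted p = 0.0039, both by limma-trend). The 95% intervals of -1.02 to -0.54 and -1.14 to -0.67 lie apart from those of Itgb1 (-2.94 to -2.20 and -3.00 to -2.26). The Itgb7 call depended on the fit. Against the genetic controls the adjusted p was 0.0557 without genetic control 8619, 0.0676 with the 6 libraries of those groups alone and 0.329 without the variance trend. Against the animal controls it was 0.217 without the trend and 0.2 with the mouse as a fixed term. All 3 mice had less Itgb7 in deficient cells, with log2 differences of -0.64, -0.99 and -1.09.

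Itga4 encodes α4, the partner of both β1 and β7, and lies at chr2:79255426-79333123 on the plus strand. It measured 128, 89.1 and 116 CPM in deficient cells, 174, 282 and 229 CPM in genetic controls, and 173, 177 and 159 CPM in animal controls. Again no deficient library overlapped with a control library. The log2 difference was -1.03 against genetic controls (95% interval -1.51 to -0.55) and -0.63 against animal controls (-1.11 to -0.14), and neither passed the test across all genes (adjusted p = 0.0715 and 0.283 by limma-trend). The annotated exons of Itga4 share 1124 bases with the opposite-strand gene Cerkl, and the library kit does not mark strand. Cerkl averaged 3.14, 4.72 and 4.19 CPM in deficient cells, genetic controls and animal controls.

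Itgae, which encodes αE and lies at chr11:73090583-73147446 on the plus strand, was the only chain of the 10 with all deficient libraries above all control libraries. It measured 446, 463 and 535 CPM in deficient cells of mice 142114, 232614 and 432614. Genetic controls 124, 8619 and 8800 had 220, 263 and 153 CPM. The animal controls of the same mice as the deficient cells had 279, 126 and 342 CPM. The log2 difference was 1.21 against genetic controls (95% interval 0.46 to 1.97) and 1.07 against animal controls (0.31 to 1.82), but the adjusted p by limma-trend was 0.184 and 0.24. The animal control of mouse 232614 is the low library of its group: without it the adjusted p against the genetic controls, whose estimate that library does not enter, was 0.0483, and against the animal controls it was 0.360 with a log2 difference of 0.63. In mice, naive CD8 T cells are known to carry αE, and Cd8a was higher beside Itgae, at 367 ± 19.9 CPM in deficient cells, 21.9 ± 7.56 CPM in genetic controls and 34.5 ± 16.1 CPM in animal controls. Summed CD8 markers are given above. Their part in the Itgae level was not tested. Groups that do not overlap are frequent in designs of this size: 8.44% of all genes were higher in every deficient library than in every genetic control library and 7.85% than in every animal control library, while 7.28% and 8.1% were lower, which makes 15.7% and 15.9% in either direction. Among the 10 chains, 1 was higher in this sense in both comparisons (Itgae), 5 were lower against genetic controls (Itgb1, Itgb3, Itgb7, Itga4 and Itgav) and 3 against animal controls (Itgb1, Itgb7 and Itga4).

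**Figure D2:**
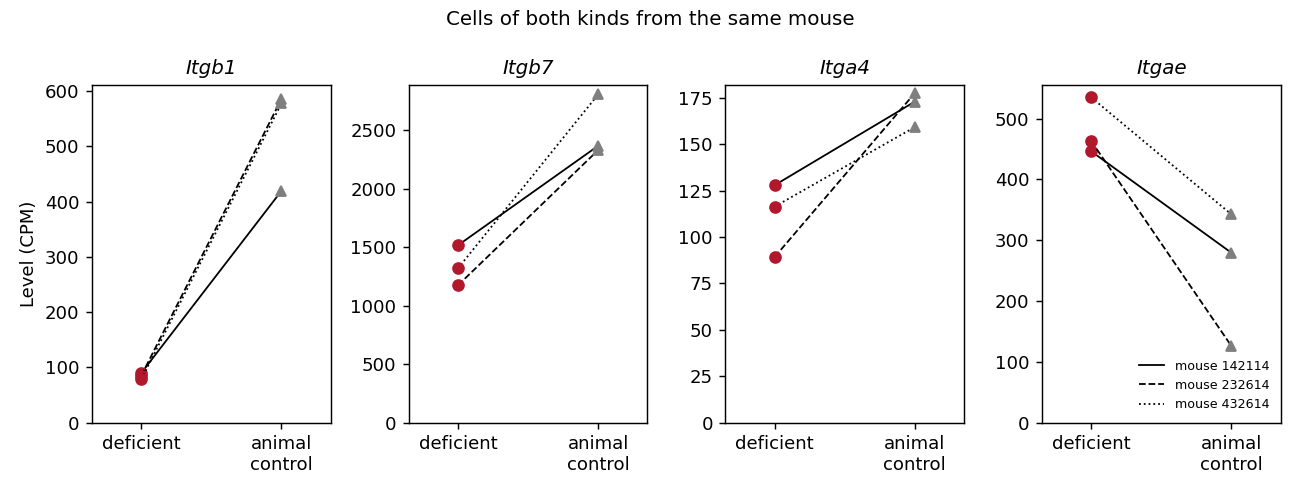
Level in CPM on a linear axis from 0 of 4 chains in deficient cells (left, circles) and animal control cells (right, triangles), with a line for each mouse. Itgb1, Itgb7 and Itga4 were lower in the deficient cells of all 3 mice, and Itgae was higher in those of all 3.

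Itgb2 and Itgal encode β2 and αL, which together form LFA-1, the integrin that T cells use for contact with antigen-presenting cells. Itgb2 ranged from 983 to 1287 CPM in deficient cells, 1148 to 1400 CPM in genetic controls and 993 to 1207 CPM in animal controls. Its log2 difference was -0.14 against genetic controls (95% interval -0.41 to 0.14) and 0.03 against animal controls (-0.25 to 0.30). Itgal ranged from 659 to 684 CPM in deficient cells, 609 to 993 CPM in genetic controls and 657 to 983 CPM in animal controls. Its log2 difference was -0.23 (95% interval -0.64 to 0.18) and -0.28 (-0.69 to 0.14). For both chains the groups overlapped, and the intervals exclude a step as large as that of Itgb1.

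Itga6 encodes α6, a laminin-binding partner of β1. It ranged from 258 to 349 CPM in deficient cells, 252 to 419 CPM in genetic controls and 209 to 367 CPM in animal controls, so the groups overlapped. Its log2 difference was -0.15 against genetic controls (95% interval -0.70 to 0.40) and 0.16 against animal controls (-0.38 to 0.71).

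Itgav encodes αV, which pairs with β1, β3 and β8 here. It ranged from 42.6 to 57.6 CPM in deficient cells, 58.1 to 105 CPM in genetic controls and 40.9 to 125 CPM in animal controls. The log2 difference was -0.63 (95% interval -1.54 to 0.29) and -0.57 (-1.48 to 0.34), and neither passed the test. Itgb3, which encodes β3 and is best known from platelets, measured 23.5, 69.6 and 32.7 CPM in deficient cells, 82.8, 103 and 71.3 CPM in genetic controls and 48.1, 31.4 and 62.9 CPM in animal controls. The genetic controls were above both other groups. The log2 difference of deficient cells was -1.17 against genetic controls (adjusted p = 0.35 by limma-trend) and -0.28 against animal controls (adjusted p = 0.879). The highest Itgb3 library of the deficient cells (mouse 232614) and of the genetic controls (8619) were also the highest of their groups for summed platelet and erythroid markers, at 40.4 and 65.1 CPM. In animal controls the highest Itgb3 library (mouse 432614) had a sum of 0.116 CPM, against 0.465 CPM in mouse 142114. Outside the libraries of 40.4 and 65.1 CPM, sums were at most 2.93 CPM. Of 10 markers on this list 6 were measured: Gp1ba, which is specific to platelets, and the erythroid genes Hbb-bs, Hbb-bt, Hba-a1, Hba-a2 and Alas2. The platelet markers Itga2b, Gp9, Pf4 and Ppbp were not measured. The part of platelet transcripts in the Itgb3 level was not tested. Itgb8, which encodes β8, had the largest standard error of the 10 chains (0.79 on the log2 scale), at 3.69 to 18.9 CPM in deficient cells, 8.08 to 31.3 CPM in genetic controls and 11.9 to 38.4 CPM in animal controls. Its log2 intervals of -2.41 to 1.11 and -2.81 to 0.71 allow a large change in either direction.

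**Figure D3:**
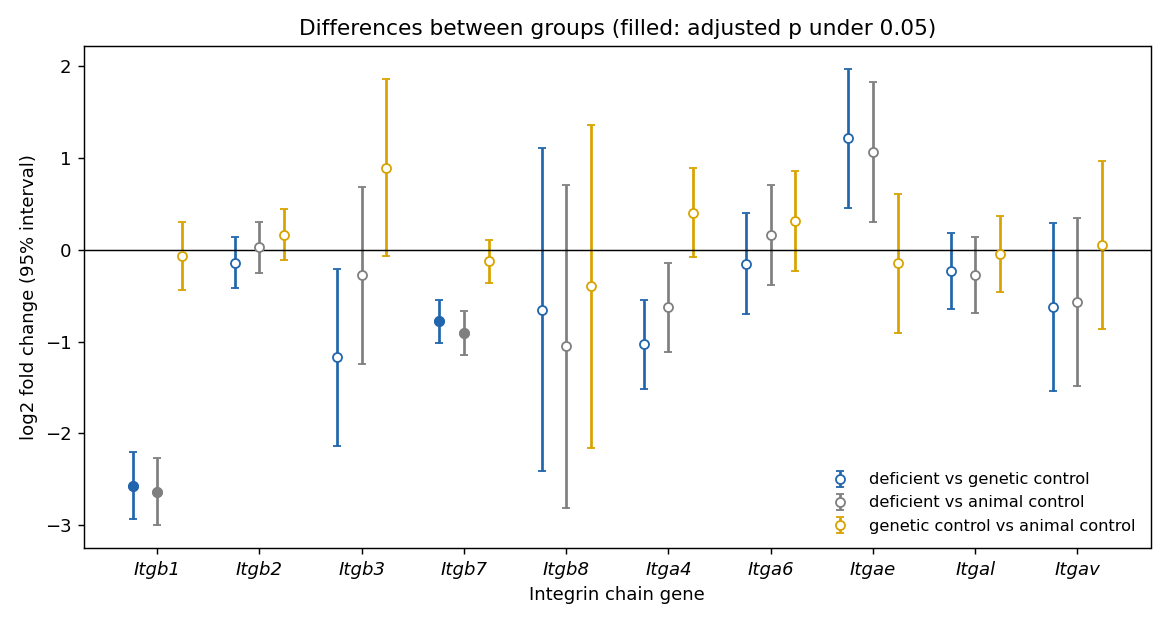
Log2 fold change of each chain with its 95% interval from the limma-trend fit, with 3 points per chain: deficient cells over genetic controls, the same cells over animal controls, and the genetic over the animal controls. Filled points, those of Itgb1 and Itgb7 in the first 2 comparisons, have an adjusted p under 0.05.

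The genetic and animal controls both kept Thpok and LRF and differ in mice, Foxp3 allele and sorting gate. Between them, limma-trend called 0 of the 10 chains, and 0 of the 10 had an unadjusted p under 0.05, where 0.0365% and 6.62% of all genes did. Without the variance trend the count was also 0. The log2 difference was -0.07 for Itgb1 (95% interval -0.43 to 0.30), -0.13 for Itgb7 (-0.36 to 0.11) and -0.15 for Itgae (-0.91 to 0.61). Itgb3 had the lowest p of the 10 and was higher in every genetic control than in every animal control (0.89, 95% interval -0.07 to 1.86), as 4.88% of all genes were (5.57% were lower, and 10.4% did not overlap in either direction).

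The comparison of beta chains with their alpha partners was made as the log2 ratio of the 2 chains within each library. A factor common to both values cancels in it, and gene length adds about the same constant in every library. For values brought to a common distribution, neither holds exactly for the underlying counts. For α4β1, the Itgb1 to Itga4 ratio lay between -0.57 and -0.07 in deficient cells, 0.97 and 1.49 in genetic controls and 1.28 and 1.86 in animal controls. All 3 deficient libraries were below 0 and all 6 control libraries above 0. The mean difference of deficient cells was -1.54 ± 0.23 (SE) against genetic controls and -2.01 ± 0.24 against animal controls. For α6β1 the Itgb1 to Itga6 ratio averaged -1.84 ± 0.12 in deficient cells, 0.58 ± 0.51 in genetic controls and 0.96 ± 0.68 in animal controls. For β1 with αV it averaged 0.80 ± 0.18, 2.74 ± 0.32 and 2.86 ± 1.05 in that order. In all 3 pairs with β1 the deficient libraries lay below every control library. The ranges of the single chains in each group already fixed this separation. It and its permutation p below thus add nothing to the levels of the single genes.

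For α4β7 the Itgb7 to Itga4 ratio was 3.60 ± 0.11 in deficient cells, 3.35 ± 0.39 in genetic controls and 3.88 ± 0.23 in animal controls, with overlapping groups. The differences of 0.25 ± 0.23 (SE) and -0.28 ± 0.15 had opposite signs against the 2 controls. For αEβ7 the Itgb7 to Itgae ratio was 1.76, 1.34 and 1.30 in deficient cells, 3.45, 3.15 and 3.79 in genetic controls and 3.08, 4.21 and 3.03 in animal controls. The mean difference of deficient cells was -1.99 ± 0.24 against genetic controls and -1.97 ± 0.41 against animal controls. The deficient libraries lay apart from all controls, as they had to with Itgb7 lower and Itgae higher in each of them. This separation and its permutation p below thus add nothing to the levels of the 2 genes.

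For LFA-1, the Itgb2 to Itgal ratio averaged 0.72 ± 0.18 in deficient cells, 0.63 ± 0.24 in genetic controls and 0.42 ± 0.23 in animal controls, with overlap. The Itgb3 to Itgav ratio (-0.36 ± 1.01, 0.19 ± 0.29 and -0.65 ± 0.63) and the Itgb8 to Itgav ratio (-2.30 ± 1.25, -2.27 ± 0.70 and -1.82 ± 1.65) overlapped between deficient cells and each control. Itgb3 to Itgav was higher in every genetic control than in every animal control, by 0.84 ± 0.40 (SE). With 3 libraries against 3, the two-sided exact permutation test cannot go below p = 0.1. That value was reached by the 3 ratios with β1 and by Itgb7 to Itgae against both controls, and by Itgb3 to Itgav between the controls. The test and the SE of the differences took libraries as independent, although deficient and animal control cells came from the same mice. No paired test of the ratios was made. The family for adjustment held 30 comparisons, those of the ratios and of 2 shares given further below. Over it the Benjamini-Hochberg adjusted p of the ratios at 0.1 was 0.231, so this test cannot carry them past a threshold of 0.05.

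**Figure D4:**
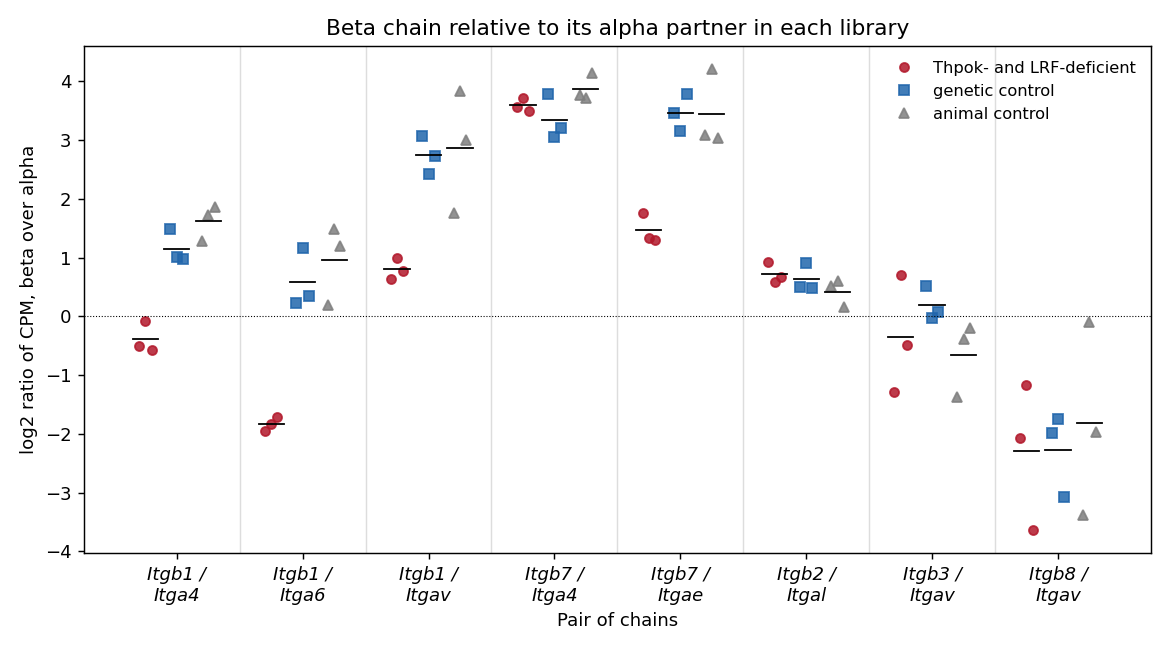
Log2 ratio of the CPM of a beta chain to that of an alpha chain in each library for 8 pairs, with a line at each group mean. The deficient libraries (circles) sit below all controls for the 3 pairs with Itgb1 and for Itgb7 with Itgae, and among the controls for Itgb7 with Itga4 and for Itgb2 with Itgal.

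Levels of different genes can be compared only per length, so CPM was divided by the length of merged annotated exons in kilobases (kb). Itgb7 stood first in every group, at 482 ± 61.9 CPM per kb in deficient cells, 824 ± 54.3 in genetic controls and 902 ± 95.5 in animal controls, and Itgb2 second at 367 ± 50.4, 404 ± 47.7 and 360 ± 35. Below them the order differed between groups. In deficient cells Itgae (105 ± 10.3 CPM per kb) and Itgal (103 ± 2) followed and did not differ beyond their spread, then Itga6 (33.6 ± 5.01) and then Itgb1 (20.7 ± 1.38). In genetic controls Itgal (123 ± 29.3) and Itgb1 (123 ± 14.4) followed with overlapping ranges, above Itgae (46.3 ± 12) and Itga6 (37.8 ± 9.32), which overlapped too. In animal controls Itgb1 (129 ± 23) and Itgal (126 ± 24.9) likewise overlapped, above Itgae (54.4 ± 24.3) and Itga6 (30.6 ± 9.02). The last 4 places went to Itga4, Itgb3, Itgav and Itgb8 in each group, with Itgb8 between 1.09 and 2.07 CPM per kb on average. With the length of the longest transcript in place of merged exons, Itga6 came to 70.4, 79.2 and 64.1 CPM per kb in deficient cells, genetic controls and animal controls, which put it above Itgae in genetic controls.

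A pair of shares, chosen after the values were seen, put the same levels per kb as fractions of the available partners. Of the α partners of β7 followed here, Itgae made up 91.4, 94.1 and 93.3% in deficient cells, 79.4, 73.9 and 67.1% in genetic controls and 83.1, 68.4 and 86.8% in animal controls, with Itga4 as the rest. Of the β partners of α4, Itgb1 made up 3.86, 4.68 and 3.88% in deficient cells, 12.1, 14.1 and 12.6% in genetic controls and 10.8, 14.6 and 12.3% in animal controls, with Itgb7 as the rest. Deficient libraries did not overlap with controls in either share, and the exact permutation p was 0.1 for each, the smallest possible. For the Itgae share this had to be so, since Itgae was higher and Itga4 lower in every deficient library than in every control. The ranges of Itgb1 and Itgb7 in each group likewise fixed it for the Itgb1 share. As both shares were chosen after the values were seen, these p-values add no support.

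**Figure D5:**
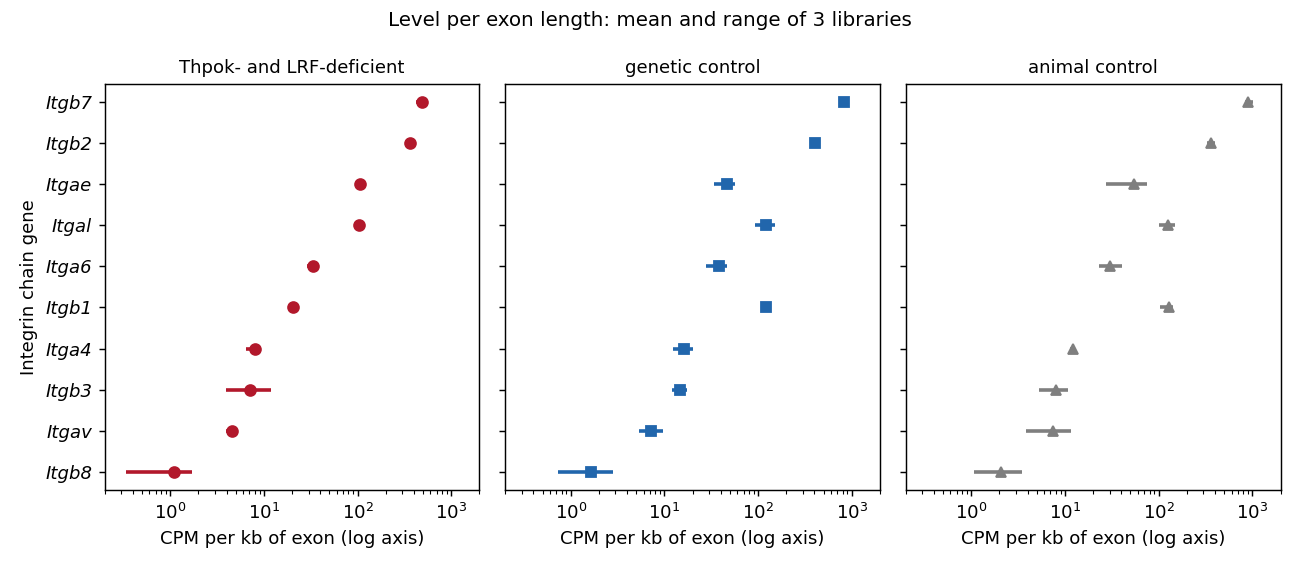
Level of each chain per kb of merged exon on a log axis, as the mean (marker) and range (bar) of 3 libraries, for deficient cells, genetic controls and animal controls from left to right. Genes are ordered by their level in deficient cells, where Itgae stands above Itgb1, while Itgb1 stands above Itgae in both control groups.

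A further 7 integrin chain genes were in the table, and limma-trend called 0 of them in any comparison, with 0 at an unadjusted p under 0.05. Itga5, the fibronectin-receptor partner of β1, averaged 8.17 ± 14 CPM in deficient cells, 12.6 ± 3.09 CPM in genetic controls and 7.44 ± 7.98 CPM in animal controls. Itga9, another β1 partner, averaged 7.68 ± 5.9, 9.9 ± 9.43 and 4.77 ± 6.96 CPM. Itga7, a laminin receptor chain of muscle, was at the lowest value of the table in all 3 deficient libraries, in 2 of 3 genetic controls and in 1 of 3 animal controls. Its highest values were 22.9 CPM in genetic controls and 29.6 CPM in animal controls. Itga2, Itga3, Itgb4 and Itgb5 each averaged at most 4.24 CPM in any group.

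Genes whose proteins switch integrins on from inside the cell were examined next. The gene lists from here on were also chosen with earlier results known. Among 30 measured activators and adaptors, limma-trend called 0 higher and 0 lower against either control, with median log2 fold changes of 0.07 and 0.20. An unadjusted p under 0.05 was found for 3 of the 30 against genetic controls, where 10.6% of all genes had one, and for 8 of the 30 against animal controls, where 11.9% did. Talin (Tln1), which binds beta chain tails, averaged 588 ± 87.8 CPM in deficient cells, 667 ± 166 CPM in genetic controls and 628 ± 66.4 CPM in animal controls. Kindlin-3 (Fermt3), its partner in blood cells, averaged 506 ± 78.2, 546 ± 58.5 and 481 ± 53.8 CPM in that order. Of the 30, 3 were higher and 2 lower in every deficient library than in every genetic control, beside 8.44% and 7.28% of all genes. Against animal controls 10 were higher and 2 lower in this sense, beside 7.85% and 8.1% of all genes.

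Among 17 measured surface partners and ligands of integrins, 1 rose and 1 fell against each control. Of all genes, 0.336% were called higher and 0.533% lower against genetic controls, and 0.307% and 0.584% against animal controls. Both called genes encode tetraspanins, membrane proteins that associate with integrins. Cd81 rose to 636 ± 44.3 CPM in deficient cells, against 218 ± 18.5 CPM in genetic controls (log2 fold change 1.55 ± 0.12 SE, adjusted p = 5.01e-04) and 359 ± 30.8 CPM in animal controls (0.83 ± 0.12, adjusted p = 0.013, both by limma-trend). Cd82 fell to 241 ± 14.9 CPM in deficient cells, against 606 ± 61.4 CPM in genetic controls (-1.33 ± 0.15, adjusted p = 0.00438) and 694 ± 144 CPM in animal controls (-1.51 ± 0.15, adjusted p = 0.002, both by limma-trend). With the mouse as a fixed term the adjusted p against animal controls was 0.208 for Cd81 and 0.159 for Cd82. An unadjusted p under 0.05 was found for 5 of the 17 against genetic and 7 against animal controls (10.6% and 11.9% of all genes). Groups did not overlap for 1 higher and 4 lower genes against genetic controls, beside 8.44% and 7.28% of all genes. Against animal controls this was so for 3 higher and 6 lower, beside 7.85% and 8.1% of all genes. Over these 17 genes the median difference on the log2 scale was 0.19 against genetic controls and -0.26 against animal controls.

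Among 22 measured genes of gut homing and latent TGF-beta, 2 rose and 0 fell against genetic controls, and 1 rose and 0 fell against animal controls, with the same shares of all genes as above. An unadjusted p under 0.05 was found for 6 of the 22 against genetic and 7 against animal controls (10.6% and 11.9% of all genes). Groups did not overlap for 3 higher and 4 lower genes against genetic controls, where 8.44% and 7.28% of all genes did not. For 7 higher and 1 lower they did not against animal controls, where 7.85% and 8.1% of all genes did not. Ccr9, the chemokine receptor that steers lymphocytes to the small intestine beside α4β7, averaged 415 ± 73.1 CPM in deficient cells, 23.6 ± 17.8 CPM in genetic controls and 44.3 ± 26.4 CPM in animal controls (adjusted p = 0.00977 and 0.029 by limma-trend). With the mouse as a fixed term the adjusted p of Ccr9 against animal controls was 0.232. Runx3, which encodes a factor that CD8 T cells need, rose against genetic controls (96.1 ± 5.44 against 24.2 ± 9.33 CPM, adjusted p = 0.024 by limma-trend). Against animal controls, at 70.6 ± 19.3 CPM, it did not pass the test (adjusted p = 0.647). Lrrc32, the GARP protein that holds latent TGF-beta on Treg cells for αVβ8 to act on, averaged 473 ± 20.4 CPM in deficient cells, 389 ± 108 CPM in genetic controls and 429 ± 95.2 CPM in animal controls. Over the 22 genes the median log2 difference was -0.09 against genetic and 0.09 against animal controls. Between the 2 controls, 0 members of these 3 lists were called by limma-trend, as 0.0365% of all genes were. An unadjusted p under 0.05 was found for 3 of 30 activators and adaptors, 2 of 17 surface partners and ligands and 4 of 22 gut homing and latent TGF-beta genes, beside 6.62% of all genes.

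Across the 9 libraries, the genes with log2 values most like those of Itgb1 were Zbtb7b, Ly6a and Pck2 (Pearson r = 0.991, 0.986 and 0.984), ranked among 7549 genes averaging 10 CPM or more. For Itgb7 they were Irgm1, Cd82 and Lbh (0.975, 0.964 and 0.963), with Itgb1 in 5th place. For Itga4 they were Imp4, Sptssa and Eno1 (0.984, 0.950 and 0.941), and for Itgae Slc50a1, Tspyl3 and Cd160 (0.955, 0.937 and 0.931). The closest to Itgb2 were Rabl6, Arhgef18 and Nars (0.882, 0.878 and 0.876), to Itgal Rasa1, Eml2 and Tnfsf8 (0.921, 0.891 and 0.881), and to Itga6 Tulp4, Pik3r5 and 2810474O19Rik (0.920, 0.919 and 0.916). The closest to Itgb3 were Arntl, Tns1 and Tradd (0.953, 0.924 and 0.919), to Itgb8 Ric8, Ninj1 and Tvp23b (0.946, 0.908 and 0.901), and to Itgav Ubash3b, Clstn1 and Gnb2 (0.953, 0.926 and 0.902). The 9 points fall into 3 groups of libraries with the deficient cells apart in Itgb1, Itgb7, Itga4 and Itgae, so these values carry the group difference and describe likeness only.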

How the data were processed

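The 9 mRNA libraries were made with a low-input SMARTer kit and Nextera XT, which do not mark strand, per the labels' protocols. STAR 2.4.0h, bcl2fastq 1.8.4, limma and build mm10 are named in the submitters' processing notes; no source used here names the counting tool, annotation or gene filter. The authors deposited log2 CPM values for 13702 rows (4 exact duplicates were dropped), between -7.77 and 13.42, with column sums of 999258 to 999307 CPM. The unit and the common distribution were read from the values. Depth is unknown, so no counting interval is given.

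Genes were tested on the deposited log2 values with no pseudocount and no filter, using limma 3.58.1 (trend and group means over all 9 libraries, Benjamini-Hochberg over 13698 genes, threshold 0.05) in R 4.3.3, and checked on simulated data. Ratios were tested by two-sided exact permutation (scipy 1.17.1). Coordinates and exon lengths are from GENCODE on GRCm38. Levels per kb used merged exons.

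The members and gene lists were chosen with earlier results of these data known. The text names the 10 chains, other integrin chains averaging at least 1 CPM in a group, called genes of 3 lists (activators and adaptors, surface partners and ligands, gut homing and latent TGF-beta), deletion and identity genes, and the 3 genes most like each chain. Tln1, Fermt3, Lrrc32 and Cerkl were named after their values were seen. Replicates are mice. Deficient and animal control cells pair by mouse, as series text says they came from the same mice; correlations of same-mouse deviations were 0.0483, 0.0202 and 0.0170 over 7550 genes. Alternatives left out each library, the trend or the third group, added a pseudocount or low-value filter, centred medians, or added the mouse as a block.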

Additional observations from a re-analysis of the deposited data

How the results depend on the processing

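Itgb1 was called lower against genetic controls in all 16 alternatives run and against animal controls in 16 of 17. The exception is the fit with the mouse as a fixed replicate block, which can be made for that comparison alone: there limma called 0 genes (1401 had an unadjusted p under 0.05) and 0 of the 10 chains (4 unadjusted), with adjusted p = 0.125 for Itgb1 and 0.200 for Itgb7. With the mouse as a random block the counts were 118, 148 and 5 genes in deficient against genetic, deficient against animal, and genetic against animal controls. Without the variance trend 1 chain was called against each control, and 32 genes were called between controls. With only the 2 groups compared, 22, 52 and 3 genes were called, and 1 chain against genetic controls. Without genetic control 8619 and animal control 232614, a choice made after seeing the data, 21, 27 and 1 genes were called, and 1 chain against each control (Itgb7 adjusted p = 0.120 and 0.0657). The cause of these changes was not tested.

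With each library left out in turn, 48 to 93, 58 to 115 and 4 to 10 genes were called in the 3 comparisons, and 1 to 3, 2 to 2 and 0 to 0 chains. The lowest count of chains came without genetic control 8619. Differences near 0 changed sign in some of these fits. Against animal controls the log2 difference spanned -0.078 to 0.12 for Itgb2, -0.016 to 0.39 for Itga6 and -0.72 to 0.064 for Itgb3. Against genetic controls it spanned -0.35 to 0.014 for Itga6 and -1.12 to 0.056 for Itgb8. Between controls it spanned -0.22 to 0.018 for Itgb1, -0.91 to 0.070 for Itgb8, -0.35 to 0.45 for Itgav, -0.58 to 0.14 for Itgae and -0.21 to 0.14 for Itgal. Without both libraries named above it was -0.044 for Itgb2 and -0.016 for Itga6 against animal controls and -0.60 for Itgav between controls. All 210 alternative values of the ratios and shares stayed within 1 SD. Where 1 library was left out this had to be so, since with 3 libraries a group mean cannot move that far. Those fits therefore do not test how stable the ratios and shares are. With the longest transcript's length, 13 of 30 levels per kb moved by more than 1 SD. With 3 libraries a group and unknown depth, small differences in the lower chains were not detectable.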
